A study of Mus musculus with 2 samples.

Results

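The genes described here build the vesicle transport machinery of the cell. They are the 146 protein-coding mouse genes whose symbols place them in 5 families, out of 21000 protein-coding genes on the chromosomes that hold peaks. The families are the Rab GTPases with 59 genes, the Vps genes with 35, the Sec genes with 29, the Trappc genes with 15 and the coatomer (Cop) genes with 8. The rule uses the symbol alone and no measured value, although the families were picked with earlier results of these data known. The symbol rule also takes in Vps72, a subunit of a chromatin remodelling complex, and Sec1, a fucosyltransferase, which do not act in trafficking.

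NRF1 occupancy in wild-type mouse skeletal muscle was profiled by ChIP-seq, in which an antibody recovers a DNA-binding protein together with the DNA it occupies. The study asked where NRF1 binds relative to the glucocorticoid receptor and its coregulator LSD1 in this tissue. The labels describe 2 libraries, both wild-type and both with the NRF1 antibody, while the reporting summary of the study calls the second of them input DNA. A single list of 3226 peaks was analysed, and its peak names carry the title of the first library. There is thus 1 group, 1 list and no replicate error on any value. Nuclei were prepared from muscle tissue without a described sort of myofibre nuclei, and the labels give neither the muscle, the age of the animals nor any pooling. A peak list holds no expression, so the tissue label could not be checked against marker genes.

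Vesicle traffic moves proteins and lipids between membranes. Coat proteins bud a vesicle from its source (COPII from the endoplasmic reticulum, COPI from the Golgi), Rab GTPases mark each membrane and recruit effectors, tethers such as TRAPP, HOPS and CORVET capture the vesicle, and retromer returns cargo from endosomes. In muscle these routes deliver the glucose transporter to the surface in response to insulin and supply the lysosome. NRF1 is best known for binding the CpG-rich promoters of genes for mitochondria and other housekeeping functions, through a palindrome made of the half-site GCGCA followed directly by its reverse complement.

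The sequences that carry the comparison are copies of this palindrome with 1 base changed, shown with 10 bases on each side, on the strand of the gene and with the 10 motif bases in capitals. All sequence was read from the RefSeq assembly GRCm38, the assembly of mm10. A substitution is written with the base of the palindrome first, then its position counted from 1 at the first base of the motif on the gene's strand, then the base of the gene. The first set had a promoter peak. Among the shared forms, T6G occurred in both coatomer genes with a peak and in Trappc3, A5C in Rab35, and T6C in Vps13c, Trappc9 and Sec14l1. A5G was found in Rab10, Rab8a and Vps26b, G1A in Trappc1 and Sec24c, G1T in Vps33a, and C8A in Sec22c. Since the motif is a palindrome, T6G and A5C are the same change read on opposite strands, as are T6C and A5G.
Copb2, chr9:98563671-98563680: cggagggtgtGCGCAGGCGCagagcctggc
Copg1, chr6:87887886-87887895: gcgcagttgtGCGCAGGCGCagacaacaga
Copg1, chr6:87887908-87887917: acaacagagtGCGCAGGCGCagtccatagt
Trappc3, chr4:126262362-126262371: gcgccacaccGCGCAGGCGCagtgaggagg
Rab35, chr5:115631881-115631890: tccagcccccGCGCCTGCGCagtggcgggg
Vps13c, chr9:67840302-67840311: tggcggcgtcGCGCACGCGCggcgcggggc
Trappc9, chr15:73061058-73061067: agcacgacttGCGCACGCGCaggagctgcg
Sec14l1, chr11:117115126-117115135: ggcctggtgtGCGCACGCGCgcctcttccg
Rab10, chr12:3310016-3310025: gcccgcccgcGCGCGTGCGCagaggcgggc
Rab8a, chr8:72160870-72160879: cgttctctgcGCGCGTGCGCtctctgccag
Vps26b, chr9:27030089-27030098: gagaagacgtGCGCGTGCGCgtggcatcat
Trappc1, chr11:69323904-69323913: gaacgtgggcACGCATGCGCgcggcatcgg
Sec24c, chr14:20674202-20674211: tacaccacatACGCATGCGCaacatccggg
Vps33a, chr5:123573118-123573127: ggactcctccTCGCATGCGCactaggacct
Sec22c, chr9:121705026-121705035: ctcacggtgtGCGCATGAGCaccacatcct

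The second set lay in Rab promoters without a peak, and these genes were singled out after their values were seen. Rab28 carried A5C, Rab4a and Rab6b carried T6G, and Rab21 carried C10T. The 10 motif letters of Rab28 are those of Rab35 above, and the letters of Rab4a and Rab6b are those of Copb2, Copg1 and Trappc3. The letters of Rab21 are those of the copy at the Rab1a peak, which is not shown above. The copies at the Rab1b peak, also not shown, carried A5C like Rab28. Read on the other strand, the letters of Rab28 are also those of Copb2, Copg1, Trappc3, Rab4a and Rab6b. Likewise, the letters of Rab21 are then those of Trappc1 and Sec24c.
Rab28, chr5:41707750-41707759: ggccttgctcGCGCCTGCGCcctgtgcgcg
Rab4a, chr8:123805795-123805804: ggatctacggGCGCAGGCGCcccctcccta
Rab6b, chr9:103111753-103111762: agcgcgcagaGCGCAGGCGCgggcggagca
Rab21, chr10:115316520-115316529: tgtgtaaattGCGCATGCGTtgtttccttg

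NRF1 occupied the promoters of 36 of the 146 trafficking genes, and 110 had no promoter peak. A promoter peak is a peak whose summit lies from 1000 bp before to 100 bp after an annotated start of the gene. The share was 24.7% (Wilson 95% interval 18.4 to 32.2%), beside 13.4% of all protein-coding genes (2804 of 21000). The interval covers counting error over genes only, and genes of a family are related by descent. A site under the calling threshold cannot be told from an empty one, and the read depth behind the list is unknown. Vps72 and Sec1 were among the genes without a promoter peak. The share stayed close at 25.2% (35 of 139 genes) when Vps72, Sec1 and the Sec14-like lipid transfer genes were left out.

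The share ran from 13.6% to 46.7% over the 5 families, and differences between families were not tested. NRF1 peaks were found at 7 of 15 Trappc promoters (46.7%, interval 24.8 to 69.9%) and at 11 of 35 Vps promoters (31.4%, 18.6 to 48.0%). Among the Sec genes 8 of 29 had a peak (27.6%, 14.7 to 45.7%), and among the coatomer genes 2 of 8 (25%, 7.15 to 59.1%). The Rab GTPases, the largest family, had 8 of 59 (13.6%, 7.03 to 24.5%), which is the share of protein-coding genes at large. The intervals of the Vps, Sec and Cop families overlapped that of the Rab family, and the Trappc interval began just above its upper bound. With each summit given only to the gene of its nearest start, the Trappc share was 4 of 15 (26.7%, 10.9 to 52%), whose interval overlaps that of the Rab family, and the Vps share 8 of 35 (22.9%).

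**Figure D1:**
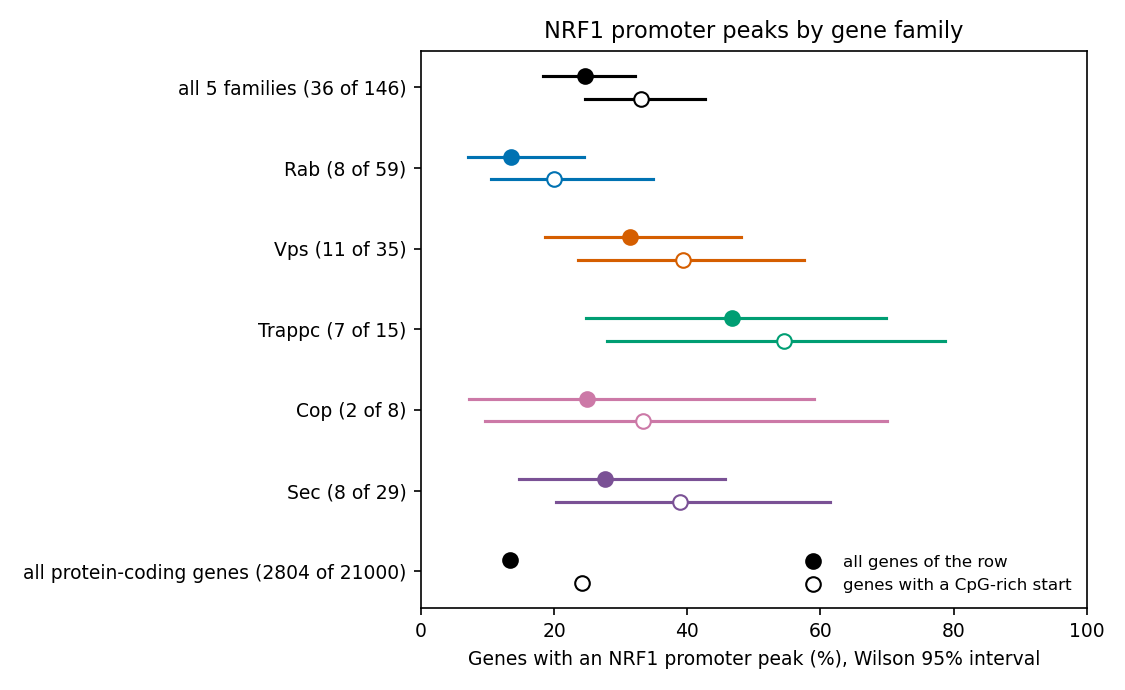
Share of genes with an NRF1 promoter peak in each family, in percent, for all genes and for genes with a CpG-rich start, with Wilson 95% intervals and with the share over all protein-coding genes beside them. The Trappc family has the highest share (46.7% of its 15 genes) and the Rab family the lowest (13.6% of 59), level with the 13.4% of all genes; with nearest starts only, Trappc falls to 26.7%.

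NRF1 peaks in general fall on CpG-rich promoters, and the trafficking genes were richer in such starts than other genes. A start was called CpG-rich when, within 200 bp of it, GC content was at least 55% and the ratio of observed to expected CpG at least 0.65, a grouping chosen after seeing the data. By this measure 70.5% of the trafficking genes had a CpG-rich start, against 49.3% of all protein-coding genes. Among genes with a CpG-rich start, 34 of 103 trafficking genes had a peak (33.0%, 24.7 to 42.6%), beside 24.2% of all such genes (2506 of 10343). The difference from the background was thus smaller in this comparison, and the lower bound for the trafficking genes lay just above the background share. With nearest starts only the shares were 28.2% (29 of 103, 20.4 to 37.5%) and 21.9%, and the interval included the background.

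The order of the families was kept among genes with a CpG-rich start, but not with nearest starts only. In the latter case, over all genes of a family, Vps (22.9%) came after Cop (25%) and Sec (24.1%). Among genes with a CpG-rich start, Trappc had 6 of 11 (54.5%, 28 to 78.7%) and Vps 11 of 28 (39.3%, 23.6 to 57.6%). Sec had 7 of 18 (38.9%, 20.3 to 61.4%), Cop 2 of 6 (33.3%, 9.68 to 70.0%) and Rab 8 of 40 (20%, 10.5 to 34.8%). Every Rab and Vps gene with a peak had such a start. Only 2 of 43 trafficking genes with a CpG-poor start had a peak (4.65%), beside 2.80% of all such genes. These were Trappc13, a TRAPP III subunit whose start had a GC content of 43.1%, and Sec61b, the beta subunit of the translocon, with a CpG ratio of 0.591. Both summits lay nearer to the start of another gene (Trim23 and Alg2), and with nearest starts only 0 of the 43 had a peak. The median CpG ratio was 0.870 for trafficking genes with a peak and 0.761 for those without, against 0.898 and 0.600 over all genes.

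**Figure D2:**
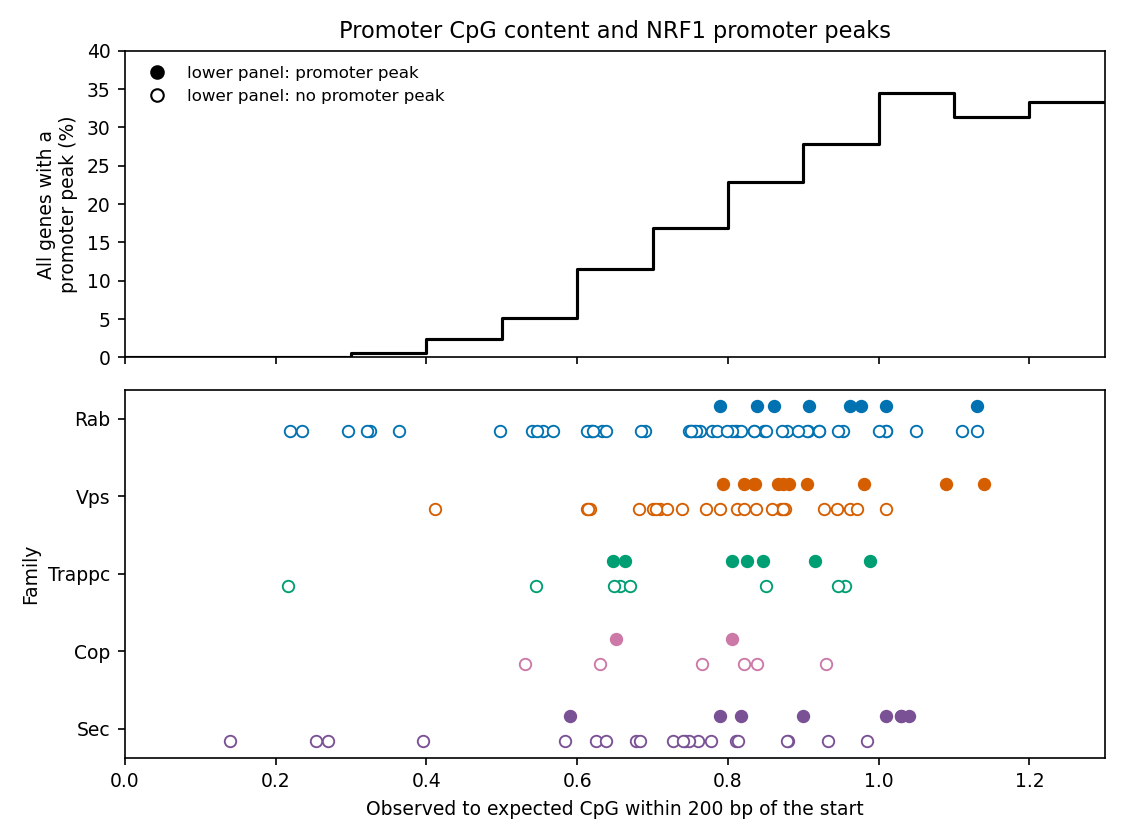
Upper panel, share of all protein-coding genes with a promoter peak (percent) by the ratio of observed to expected CpG within 200 bp of the start. Lower panel, the ratio of each trafficking gene, filled with a promoter peak and open without, by family. The share over all genes rises from 5.11% at ratios of 0.5 to 0.6 to 34.5% at 1.0 to 1.1. The ratios of trafficking genes with and without a peak overlap in each family.

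The 8 Rab GTPases with a peak fell in 3 of the 7 Rab role groups, and with a family share level with the 13.4% of all genes no role can be set apart from these counts. Of the 16 genes placed at the endoplasmic reticulum and Golgi, 3 had a peak: Rab18, which acts at lipid droplets and the endoplasmic reticulum, and both copies of Rab1, the GTPase of transport from the endoplasmic reticulum to the Golgi. Of 13 genes of recycling and surface delivery, 4 had one: Rab10 and Rab8a, which take part in delivery of the glucose transporter, Rab14 and Rab35. Rab23, which restrains Hedgehog signalling, was the only other. Groups this small can lack a peak at the background share, and no promoter peak was found at the 6 early endosome genes, among them Rab5a, Rab5b and Rab5c, at the 4 late endosome and lysosome genes, among them Rab7, at the 8 genes of regulated secretion, among them the 4 copies of Rab3, or at the 3 genes of lysosome-related organelles.

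Rab18 had the highest fold enrichment of all the trafficking genes. Its peak at chr18:6764864-6765352 had a fold enrichment of 36.3 over the control, with a −log10 q of 120, and ranked 15 of 2607 promoter peaks. The summit lay 29 bp before the start, and the palindrome itself, with no base changed, lay 51.5 bp from the summit, inside the transcribed part. It was the single trafficking peak with an exact copy. No sequence of this site is shown.

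Rab35, a GTPase of endosome recycling, came next among the Rab genes, with a fold enrichment of 23.6 and a −log10 q of 102 at chr5:115631570-115632010. Its summit lay 97 bp before the start and 4.5 bp from the copy shown above, and a second copy with A5G lay 68.5 bp from the summit. Rab14 (19.9, −log10 q 73.9, chr2:35200947-35201431) was the only Rab peak without a copy at 1 mismatch. It held overlapping copies with 2 changes each, the nearer being T6G and G9T at 18.5 bp from the summit. The other Rab peaks had fold enrichments of 17.1 at Rab10, 16.5 at Rab1b, 13.1 at Rab8a, 11.5 at Rab23 and 9.98 at Rab1a. All 8 lay before the start, from 22 bp at Rab23 to 273 bp at Rab8a. Compared with all promoter peaks, 5 of the 8 Rab peaks were at or above the upper quartile of fold enrichment.

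The Vps genes with a peak were grouped by complex. Retromer, which sorts cargo out of endosomes, had a peak at 3 of its 4 genes, namely Vps35, Vps29 and Vps26b, and none at Vps26a. Only Vps26b keeps its peak when each summit goes to the nearest start alone. The class C tethers HOPS and CORVET act at lysosomes and early endosomes. Their group, in which Vps33b, the paralog of Vps33a, was also counted, had a peak at 4 of 8 genes. These were the shared core subunits Vps11, Vps16 and Vps33a and the CORVET subunit Vps8. The remaining core subunit Vps18, the HOPS subunits Vps39 and Vps41, and Vps33b had none. The VPS13 bridges, which carry lipids between membranes, had a peak at Vps13a and Vps13c but not at Vps13b or Vps13d. ESCRT genes named Vps had 1 in 9 (11.1%), at the ESCRT-I subunit Vps37c, which is near the 13.4% of all genes. All 9 had a CpG-rich start, and the share over all genes with such a start was 24.2%. The 5 genes of the GARP and EARP tethers had none, a group too small to set apart from the 13.4%. Of the retriever complex, Vps26c had a peak and Vps35l did not.

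**Figure D3:**
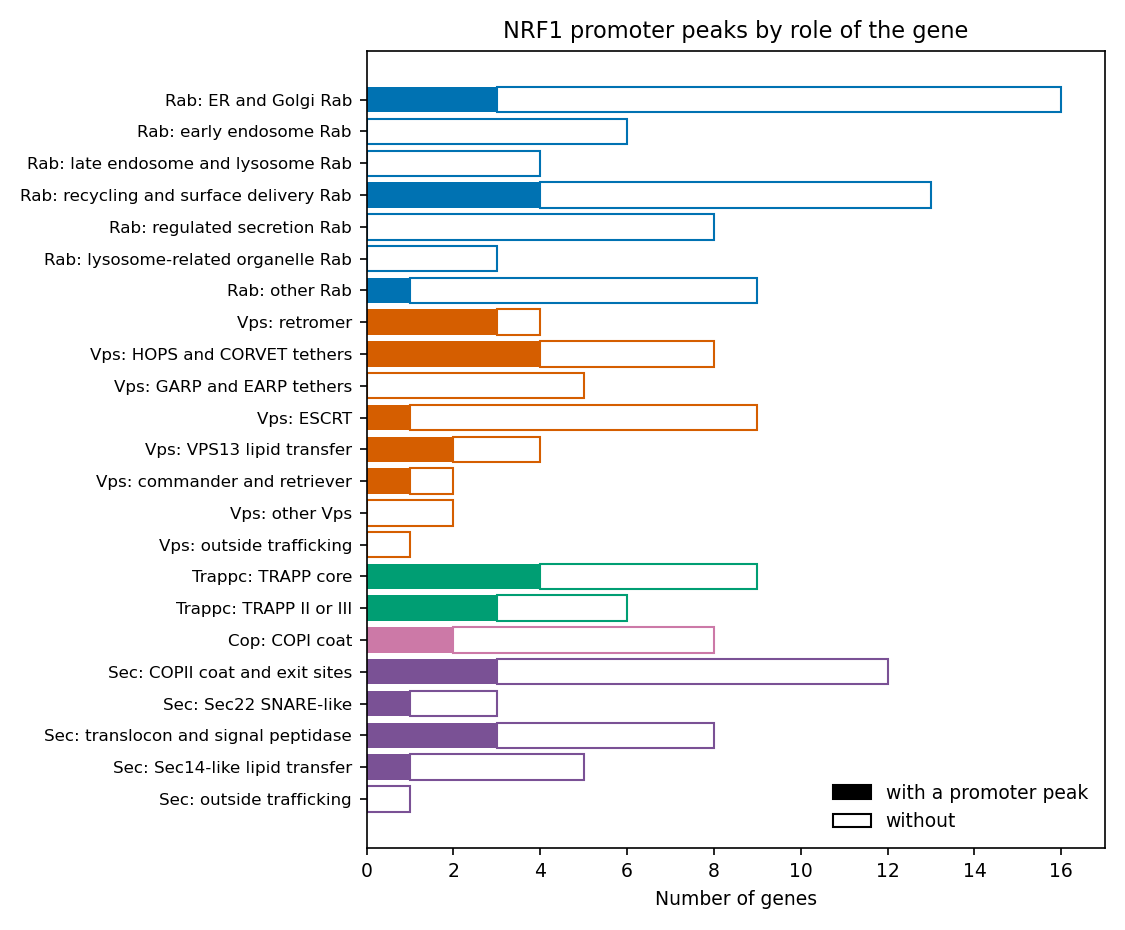
Number of trafficking genes in each of 23 role groups, filled for genes with an NRF1 promoter peak and open for genes without. Peaks fall in 15 of the 23 groups, beside a share of 13.4% over all genes, at which small groups can have none. Filled are 3 of 4 retromer genes and 4 of 8 genes in the HOPS and CORVET group, Vps33b counted (1 and 3 with nearest starts only).

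Vps genes had the lowest median fold enrichment of the 5 families, but the ranges overlapped and the difference was not tested. Their median fold enrichment per gene was 9.81, against 16.8 for Rab, 18.7 for Trappc, 17.4 for Cop and 13.8 for Sec, and 11.4 over all genes with a promoter peak. Single Vps peaks were stronger, above all Vps13c, with a fold enrichment of 28.2 and a −log10 q of 74.1 at chr9:67840135-67840415, ranking 89 of 2607. Vps13a (20.5, −log10 q 52.5, chr19:16780656-16781132) followed and held no copy at 1 mismatch. Both of these lipid bridges had summits close to the start, at -70 bp for Vps13c and -64 bp for Vps13a.

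Vps26b was the only trafficking gene with more than 1 promoter peak. The stronger, at chr9:27029870-27030391, had a fold enrichment of 16.5, a −log10 q of 46.9 and its summit 22 bp after the start in the untranslated part of the first exon. The weaker, at chr9:27030444-27030650, had a fold enrichment of 7.42, lay 468 bp before the start inside an intron of the neighbouring gene Ncapd3, and held no motif copy. Vps35, the retromer scaffold, had a fold enrichment of 11.8 and Vps29 5.94. The 4 HOPS and CORVET peaks were at 10.8 (Vps8), 9.81 (Vps11), 9.67 (Vps33a) and 5.78 (Vps16), so none was among the strong peaks of the list. Vps37c was at 7.09 and Vps26c at 4.81.

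TRAPP is the tether and Rab activator of the early secretory pathway. Its core had a peak at 4 of 9 genes, Trappc1, Trappc2, Trappc3 and Trappc5, beside 13.4% of all genes. With nearest starts only the core had 2, since the summits at Trappc1 and Trappc2 lay nearer to Cntrob and Ofd1. The subunits that distinguish TRAPP II or TRAPP III had one at 3 of 6, Trappc9, Trappc12 and Trappc13, and none at Trappc8, Trappc10 or Trappc11. Trappc13 also loses its peak with nearest starts only, since its summit lay nearer to Trim23. Trappc1 had the second highest fold enrichment of all the trafficking genes, 33.6, with a −log10 q of 104 at chr11:69323725-69324114, which ranked 26 of 2607. Its summit lay 89 bp before the start.

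Of the 7 Trappc peaks, 4 were at or above the upper quartile of fold enrichment of all promoter peaks. These were Trappc1, Trappc9 (20.5, −log10 q 70.9, chr15:73060952-73061242), Trappc3 (19.6, −log10 q 60.8, chr4:126262227-126262554) and Trappc13 (18.7), and all 4 held a motif copy. The summits at Trappc1 and Trappc13 lay nearer to the starts of Cntrob and Trim23. Trappc5 (10.1, close to the median of 11.1 over all promoter peaks), Trappc12 (4.79) and Trappc2 (4.12) held none at 1 mismatch. Trappc2, at chrX:166440652-166440792, had the lowest fold enrichment and the lowest −log10 q of the trafficking genes, 2.83. Trappc9 also carried a peak with a fold enrichment of 14.4 in an intron 245771 bp after its start, with no motif copy.

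The coatomer genes with a peak encode subunits of COPI, the coat of retrograde Golgi traffic. Copb2 had a fold enrichment of 19.2 (−log10 q 42.5, chr9:98563549-98563790) and Copg1 of 15.6 (−log10 q 47.5, chr6:87887721-87888074). Their summits lay 62 and 57 bp before the start, and each had a copy of the same 10 letters, shown above, 6.5 and 7.5 bp from the summit. Copg1 held a second such copy 29.5 bp from it. Copa, Copb1, Cope, Copz1, Copz2 and Copg2, the paralog of Copg1, had no promoter peak.

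Sec genes with a peak spanned several steps of secretion. At exit sites of the endoplasmic reticulum, 3 of 12 COPII genes had one (25%, 8.89 to 53.2%), an interval that includes the 13.4% of all genes. These were Sec23ip (18.4, −log10 q 40.3, chr7:128744778-128745035), whose product binds the inner coat, Sec24c (14.7), a cargo adaptor, and Sec16a (8.49), the scaffold of exit sites. Sec13, both copies of Sec23 and both of Sec31 had none. Of 8 genes of the translocon and signal peptidase, 3 had a peak (37.5%, 13.7 to 69.4%), or 2 with nearest starts only: Sec61b (16.8, −log10 q 43.7, chr4:47474213-47474649), Sec63 (12.9), which recruits a chaperone to the channel, and Sec61a1 (8.58), the channel itself.

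Outside these steps, Sec14l1 had a peak and the other 4 Sec14-like genes did not. Sec14l1, of a lipid-binding family, had a fold enrichment of 18.2 (−log10 q 70.2, chr11:117114651-117115281). Sec22c, related to vesicle SNAREs, had 9.14, while Sec22a and Sec22b had no peak. The Sec family had a narrow range, from 8.49 to 18.4, and held none of the strongest peaks.

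**Figure D4:**
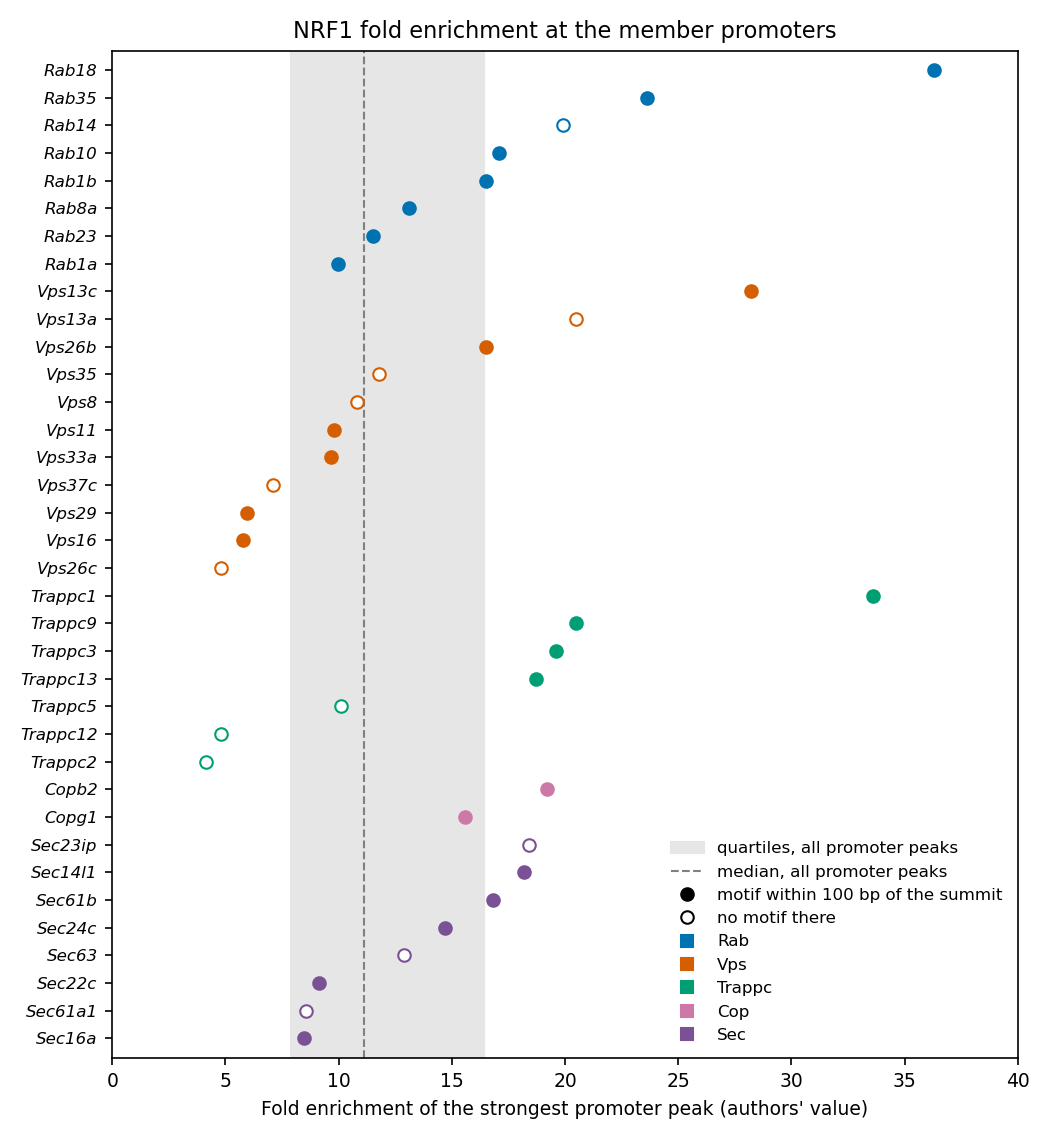
Fold enrichment of the strongest promoter peak of each of the 36 trafficking genes with one (1 value each, no error), by family, filled where the peak holds a motif copy with at most 1 mismatch within 100 bp of the summit. Grey band and dashed line are the quartiles and the median of all promoter peaks. Values run from 4.12 at Trappc2 to 36.3 at Rab18, and the weakest 3, Trappc2, Trappc12 and Vps26c, hold no motif.

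Fold enrichment at trafficking promoters ran somewhat higher than at promoters in general. The 37 peaks of the 36 genes had a median fold enrichment of 13.1 (quartiles 9.14 and 18.7), against 11.1 (7.90 and 16.4) for all 2607 promoter peaks, and a median −log10 q of 36 against 25.3. Of the 37, 16 (43.2%) were at or above the upper quartile of fold enrichment, as were 25% of all promoter peaks. The ranges overlapped throughout, and single peaks carry no error.

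The motif was found at a like share of trafficking peaks and of all promoter peaks. A copy with at most 1 mismatch, on either strand within 100 bp of the summit, was found at 24 of 37 peaks (64.9%, 48.8 to 78.2%) and at 65.9% of all promoter peaks. An exact copy was found at 1 of the 37 (2.70%) and at 285 (10.9%) of all promoter peaks, a difference of few peaks that was not tested. With 2 mismatches allowed, 34 of the 37 held a copy, as did 2372 of all 2607 promoter peaks. Peaks with a copy had a median fold enrichment of 16.5 and those without 10.1, against 12.9 and 8.58 over all promoter peaks.

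Most changes lay at the centre of the palindrome. In the best copy, the change was at position 5 or 6 in 16 of the 24 peaks (66.7%, against 60.0% over all promoter peaks with a copy) and at position 1 or 10 in 4 (16.7% against 10.5%). Read on either strand, GCGCACGCGC was present at 10 trafficking peaks, among them Vps13c, Trappc9, Sec14l1, Rab10 and Rab8a. GCGCAGGCGC, the most frequent form at all promoter peaks (610, or 23.4%), was present at 5, which were Copb2, Copg1, Trappc3, Rab1b and Rab35. ACGCATGCGC was present at 4, which were Trappc1, Trappc13, Sec24c and Rab1a. The median distance from copy to summit was 20.5 bp, against 12.5 bp over all promoter peaks.

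By family, the motif was present at 7 of 8 Rab peaks, 2 of 2 Cop peaks, 5 of 8 Sec peaks, 4 of 7 Trappc peaks and 6 of 12 Vps peaks. More than 1 copy was present at Rab1b, Rab23, Rab35, Trappc13 and Copg1. The peaks of Sec63 and Vps26c and the weaker Vps26b peak held no copy even with 2 mismatches.

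Some promoters held a motif copy but no peak. Of the trafficking genes, 29 had a copy with at most 1 mismatch anywhere in the promoter window, and 23 of these had a peak (79.3%, 61.6 to 90.2%), beside 75.4% of all genes with such a copy. In the Vps, Trappc, Cop and Sec families each of the 16 genes with a copy had a peak, 2 to 6 genes a family. With nearest starts only, Trappc1, Trappc13, Vps16, Vps29 and Sec61b lose theirs, while the Rab family keeps all 8 of its peaks. The Rab family had 13 such genes, of which 7 had a peak (53.8%, 29.1 to 76.8%). The difference between families was not tested. Among the 6 without one were Rab4a, Rab6b, Rab9b, Rab21 and Rab28.

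The unoccupied copies differed in where they lay. At Rab28 a copy lay close to the start, at -63.5 bp, where occupied copies are also found. Rab4a and Rab6b had theirs at -196.5 and -316.5 bp. Rab21 had one at -933.5 bp, and Rab9b had a pair at -962.5 and -974.5 bp. Within 100 bp of the copy the CpG ratio was 0.799 at Rab28, 0.87 at Rab6b, 0.363 at Rab4a and 0.557 at Rab21, and 0.954 and 0.909 at the pair of Rab9b. Among trafficking genes without a copy in the window, 13 of 117 had a peak (11.1%), beside 4.8% of all such genes.

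Summits lay close to the start. Over the 36 genes the median summit was at -67.5 bp (quartiles -132.25 and -27.75), against -59 bp (-132 and -12) over all genes with a promoter peak, and 23 of 36 (63.9%) were within 100 bp of the start, against 67.3%. The farthest were Sec16a at -681 bp, Vps16 at -532 bp and Vps26c at -397 bp, which were also among the weaker peaks. After the start were Trappc9 (96 bp), Sec23ip (36 bp), Vps8 (33 bp), Vps26b (22 bp) and Sec22c (5 bp), all in an untranslated exon.

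The window left out 3 genes with a summit just past it. Trappc9, at 96 bp after the start, was the gene nearest to the limit inside the window, and Trappc4, at 105 bp, the nearest outside. Trappc4 had a fold enrichment of 10.8 and 1 motif copy, at chr9:44407342-44407619. Rab33b, a Golgi GTPase, had a summit 190 bp after its start with a fold enrichment of 22.7, a −log10 q of 70.8 and 2 copies, at chr3:51483891-51484321, which would make it the third strongest Rab gene. Vps72 had a weak summit at 371 bp with a fold enrichment of 4.30 and no copy.

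**Figure D5:**
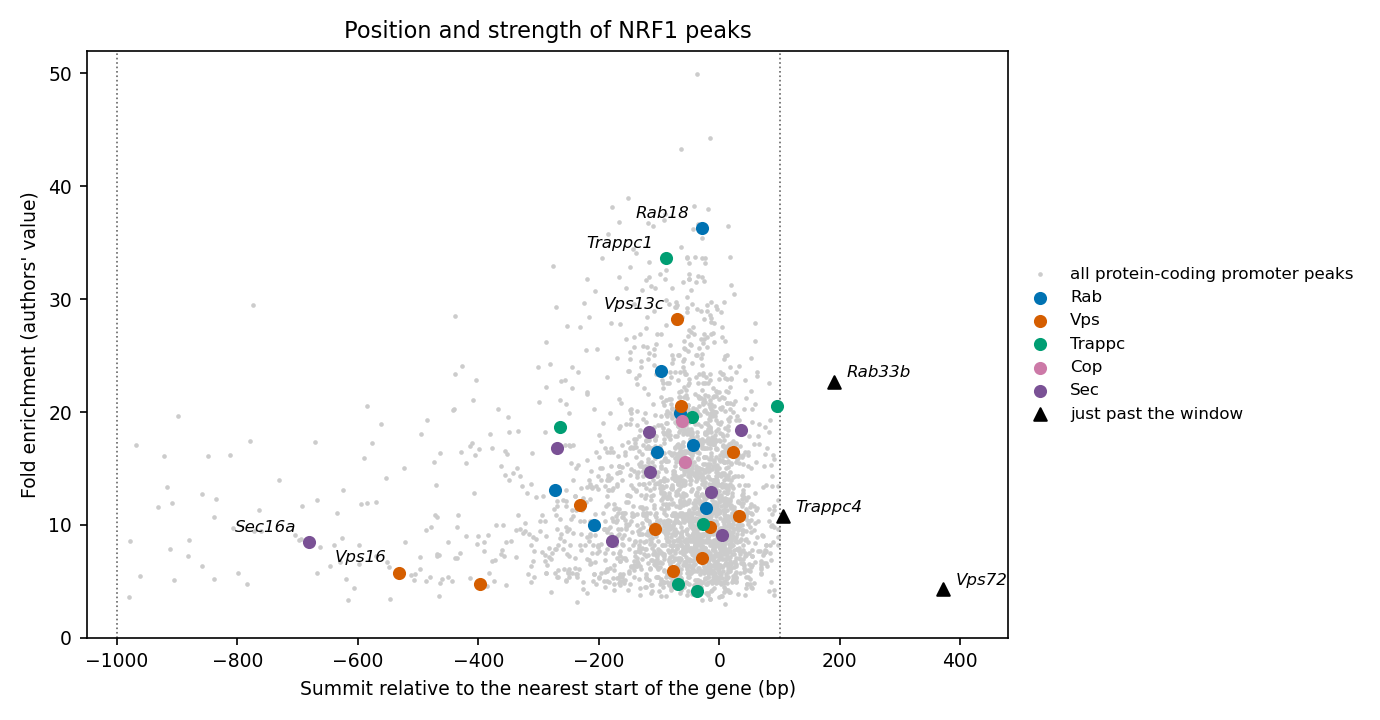
Fold enrichment of NRF1 peaks against the distance of the summit from the start of the gene (bp, negative before it). Grey points are all promoter peaks of protein-coding genes, and coloured points the strongest peak of each of the 36 trafficking genes with one, by family. Triangles are the 3 trafficking genes whose summit lies just past the window, whose limits are dotted. Most trafficking summits lie within 100 bp of the start, with Sec16a and Vps16 far before it.

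Several of these promoters are shared with another gene. Of the 36 genes, 6 had a promoter peak that also lay in the promoter of a neighbouring protein-coding gene, and this held for 16.2% of the 37 peaks against 11.8% of all promoter peaks. The summit was nearer to the start of the neighbour at 5 of the 6. At Trappc1 it lay 24 bp before the centrosomal gene Cntrob and 89 bp before Trappc1. At Sec61b it lay 24 bp before the glycosylation gene Alg2 and 270 bp before Sec61b. At Trappc13 it lay 108 bp before Trim23, and at Trappc2 14 bp before Ofd1. At Vps29 it lay 47 bp before Rad9b. At Vps26b the order was reversed, with the summit 22 bp after its own start and 93 bp before Ncapd3.

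At 2 more genes the summit was in an untranslated exon of the neighbour on the other strand. The Vps35 summit lay 116 bp after the start of Orc6, and the Vps16 summit 500 bp after that of Pced1a. The list cannot assign such a peak to either gene. With each summit given only to the gene of its nearest start, 29 trafficking genes keep a peak (19.9%, beside 11.8% of all genes). The Trappc count then falls from 7 to 4 (its core from 4 to 2), the Vps count from 11 to 8 and the retromer count from 3 to 1, which leaves Vps26b.

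The families held 30 sets of paralogs, and these are listed as a description, with no test of whether copies differ more often than unrelated genes at a share of 24.7%. Both copies had a peak in 1 set (Rab1), some but not all in 12, and none in 17. Divided sets included Rab8 (Rab8a only), Vps26 (Vps26b, not Vps26a), Vps33 (Vps33a only), Vps37 (Vps37c of 4), Sec16 (Sec16a only), Sec24 (Sec24c of 4), Sec61a (Sec61a1 only) and Trappc3 (not Trappc3l). Vps26c, which had a peak, was not counted in the Vps26 set. Sets with no promoter peak included Rab2, Rab5, Rab6, Rab11, Sec23 and Sec31.

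Trafficking genes under other names had a share of promoter peaks close to that of the 5 families. A list of 157 such genes, with 3 more that matched no gene, had 47 with a promoter peak (29.9%, 23.3 to 37.5%), and among those with a CpG-rich start 44 of 128 (34.4%). The backgrounds were 13.4% of all genes and 24.2% of those with a CpG-rich start. Rab regulators had 6 of 31 (19.4%, 9.19 to 36.3%), ESCRT genes with names other than Vps 8 of 21 (38.1%, 20.8 to 59.1%) and SNAREs and fusion factors 15 of 41 (36.6%, 23.6 to 51.9%), with overlapping intervals. Rab3gap2, whose product acts with its partner as the exchange factor of Rab18, had a fold enrichment of 36.5, close to the 36.3 of Rab18 itself.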

How the data were processed

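NRF1 ChIP-seq peaks from wild-type mouse skeletal muscle were analysed as deposited, in 1 list. As the methods state, the authors mapped single-end reads to mm10 with Bowtie, kept unique reads, removed a blacklist (the one named is for a human build) and called peaks with MACS2 against input DNA. For each peak the authors gave its position, a fold enrichment (a ratio to the control), a score, −log10 p-values and −log10 q-values, and the summit offset, all per the file layout. The methods exclude peaks with a false discovery rate above 0.01, and 7 deposited peaks exceed it, none at a gene named here. Duplicate reads had been removed according to the peak names, which can cap strong sites, an effect that was not tested. The methods give the duplicate setting of MACS2 as auto. They also give a broad peak setting, while the deposited list is in the narrow-peak layout. The number of NRF1 binding sites that the study reports is smaller than the number of peaks in this list.

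Starts were those of known RefSeq transcripts on GRCm38.p6, whose sequence was also used. The members and lists were chosen with earlier results of these data known. Every member with a promoter peak was named, and position and q were given for the 3 of highest fold enrichment per family, for an exact palindrome and for the weakest. Of members without one, those with a summit within 2000 bp of a start and some copies in paralog sets were named. Others were named where their complex, role group or motif copies were described. Motifs were searched with pysam 0.24.0 in Python 3.11.15, on both strands, after a test on simulated data. Intervals are Wilson 95% intervals from counts. No test over genes was made, since 1 list has no replicates. Alternatives were other peak thresholds, promoter windows, transcripts, gene assignments and motif settings. Motif copies of 1 Rab gene are not reported here.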

Additional observations from a re-analysis of the deposited data

How the results depend on the processing

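No paired analysis was possible because 1 peak list was analysed, and for the same reason no replicate could be left out. Of 97 values recomputed for 13 results, 93 stayed the same by the criteria used (within 1.5 times for counts). The number of trafficking genes with a promoter peak ran from 29 with each summit given only to the gene of its nearest start (19.9%, beside 11.8% of all genes) to 39 with the window widened to 2000 bp upstream and 500 bp downstream (26.7%, beside 14.7%). It was 35 at a q-value of at most 1e-05 and 33 at a fold enrichment of at least 5. The Trappc count fell to 4 with the nearest start only. The motif was found at 2.7% of trafficking peaks with no mismatch and at 91.9% with up to 2. With no mismatch, 0 promoters held a copy without a peak. In all, 26 of the 36 genes kept their peak under each alternative on peaks, windows and starts. The others were Trappc2, Trappc12, Vps26c, Sec16a, Vps16, Vps35, Sec61b, Trappc1, Trappc13 and Vps29. Read depth is unknown, so a weakly bound gene can be counted as having no peak.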

Other observations

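The SNAREs and fusion factors merge vesicle and target membranes. A promoter peak was found at 15 of these 41 genes (36.6%, Wilson 95% interval 23.6 to 51.9%), beside 13.4% of all genes. Among them were Napb at a fold enrichment of 26.9, Stx17, the syntaxin of autophagosome fusion, at 25.1, Vamp3 at 20.2, and Stx4a, the surface syntaxin used by the glucose transporter, at 9.92. Of these genes 12 of 27 with a CpG-rich start had a peak (44.4%), beside 24.2% of all genes with such a start. The lists were chosen with earlier results of these data known, and no test was made over them.

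The ESCRT genes that are not named Vps had a peak at 8 of 21 (38.1%, 20.8 to 59.1%), beside 13.4% of all genes, and those named Vps at 1 of 9 (11.1%). The difference was not tested. Of the 21, 90.5% had a CpG-rich start, and 8 of these 19 had a peak (42.1%), beside 24.2% of all genes with such a start. All 9 genes named Vps had such a start, so their share of 11.1% also stands beside 24.2%. Chmp7 had a fold enrichment of 34.1, Hgs, which recruits ubiquitylated cargo, 29.7, and Mvb12a 28.3, and all 8 peaks held a motif copy with at most 1 mismatch. The single peak among the ESCRT genes named Vps, at Vps37c, was at 7.09 and held none. The other lists gave 8 of 31 for clathrin and adaptors, 5 of 16 for Arf and Sar GTPases, and 5 of 17 for exocyst and COG tethers.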
